A study of Danio rerio with 5 samples.

Results

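Solute carriers are membrane proteins that move sugars, amino acids, ions, vitamins and drugs across membranes, and their genes are numbered in families by sequence relationship. The genes described here are those of families 1 to 24, chosen by gene symbol (slc, a family number up to 24, and a letter), with symbols read from the RefSeq accession that each array probe carries. The arrays held 242 probes for 135 such genes in 23 families. Of these, 133 probes for 80 genes in 20 families reached the scanner's mark for a signal well above background on all arrays of 1 group or both, out of 10791 named genes measured in the same way. One of the 80, slc7a6os, matches by name only, since it is called after its place opposite slc7a6 and encodes no carrier. A further 55 genes did not reach that level in either group, and 41 of them were not well above background on any array. That dim set includes slc2a1a, a zebrafish gene of glucose transporter 1, and slc5a1, the gene of the intestinal sodium-glucose cotransporter.

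Carriers fall into uniporters, which let a solute run down its gradient, and cotransporters or exchangers, which couple it to sodium, protons or chloride. The sodium gradient that many of them spend is built by the sodium-potassium pump. In fish embryos carriers pass yolk nutrients to the embryo, load the first kidney tubules and skin ionocytes, and supply pigment granules and synaptic vesicles. Many bony fish genes exist as duplicated copies, marked a and b.

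Both groups were whole zebrafish (Danio rerio) embryos collected at 14 h post fertilization after injection at the 1-cell stage with morpholinos, synthetic oligonucleotides that block translation or splicing of a chosen RNA. The gata5/6 MO group (2 arrays) was given 6.25 ng of gata5 morpholino together with 1.25 ng of gata6 morpholino in 1 nl, and the control MO group (3 arrays) 7.5 ng of control morpholino. The labels name no transgene, allele or strain, and they state that this gata5 and gata6 pair has been reported to remove gata4 expression as well. The comparison asked which RNAs change after injection against these GATA factors, zinc-finger regulators of heart and gut. Whether all 3 proteins were lost was not measured. Signals below are percentages of the same array's 75th percentile signal, and changes are log2 differences, gata5/6 MO minus control MO.

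Between 70.1% and 71.1% of probes carried that mark on an array, and saturation was seen on no spot. The gata4 signal was 26.2% and 25.1% on the gata5/6 MO arrays, against 40.8%, 40.2% and 39.2% on the control MO arrays (log2 change -0.64, adjusted p = 0.00519). The RNAs of gata5 (1.98) and gata6 (2.85) were higher, and a morpholino need not lower its target's RNA. The gata5/6 MO arrays shared slide 2 and scan 2 and the control MO arrays slide 1 and scan 1, which means that slide, scan and group cannot be told apart. Nothing in the labels says that the arrays of a group hold separate clutches. The p-values then reflect this spread alone, possibly a technical one, and having so few arrays limits the precision.

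Of the 80 measured carrier genes, 11 rose after gata5/6 MO, 12 fell and 57 did not pass the test (limma, two-sided, Benjamini-Hochberg adjusted p under 0.05 over all genes). As shares these were 13.8% higher and 15.0% lower, while among all 10791 genes 7.84% were higher and 7.17% lower, or 15.0% in either direction. For all 23 genes that passed, both gata5/6 MO arrays lay beyond all 3 control MO arrays, as in 100% of the genes that passed over the whole array. Changes ran from a 9.58-fold fall (slc2a3a) to a rise of at least 4.43-fold (slc20a1a, not above background in controls). The median log2 change was -0.02, also with the 8 genes that had no array above background in 1 group set to their bounds, against a median of 0.04 over all genes. A change of at least 2-fold, with such genes counted by their bounds, was seen in 5 of the risen and 3 of the fallen carrier genes, where 2.47% of all genes rose and 1.83% fell by as much. A gene could enter by being above background on all arrays of 1 group alone, which favours genes that differ. Among the 69 carrier genes above background on all 5 arrays 8 rose and 8 fell, where 7.11% of all such genes rose and 6.53% fell. The remaining 11 measured carriers hold 3 of the rises and 4 of the falls. A further 14 carrier genes had an unadjusted p under 0.05 without passing. The share of all genes at that unadjusted level is not given here or below, and is at least the 15.0% that passed. Counts at that level therefore stand without a base rate. The counts moved when single arrays were left out: 7 rose and 5 fell without control replicate 3, 9 and 6 without control replicate 1, and 8 and 7 without control replicate 2. Without gata5/6 MO replicate 2 they were 16 and 24, in a fit that takes the lone gata5/6 MO array to vary like the controls and that passed 3114 and 2165 of all genes. A default normexp background correction left only slc2a3a of the 23, and a variance for each group left 9. Over all genes these gave 19 risen and 24 fallen, and 290 and 257, against 846 and 774 in the main fit. With 4 spots repaired before normexp, a step chosen after seeing the data, 14 of the 23 calls were kept. Over all genes 841 rose and 714 fell in that fit. In whole embryos, fewer cells of a type and less RNA per cell cannot be told apart.

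**Figure D1:**
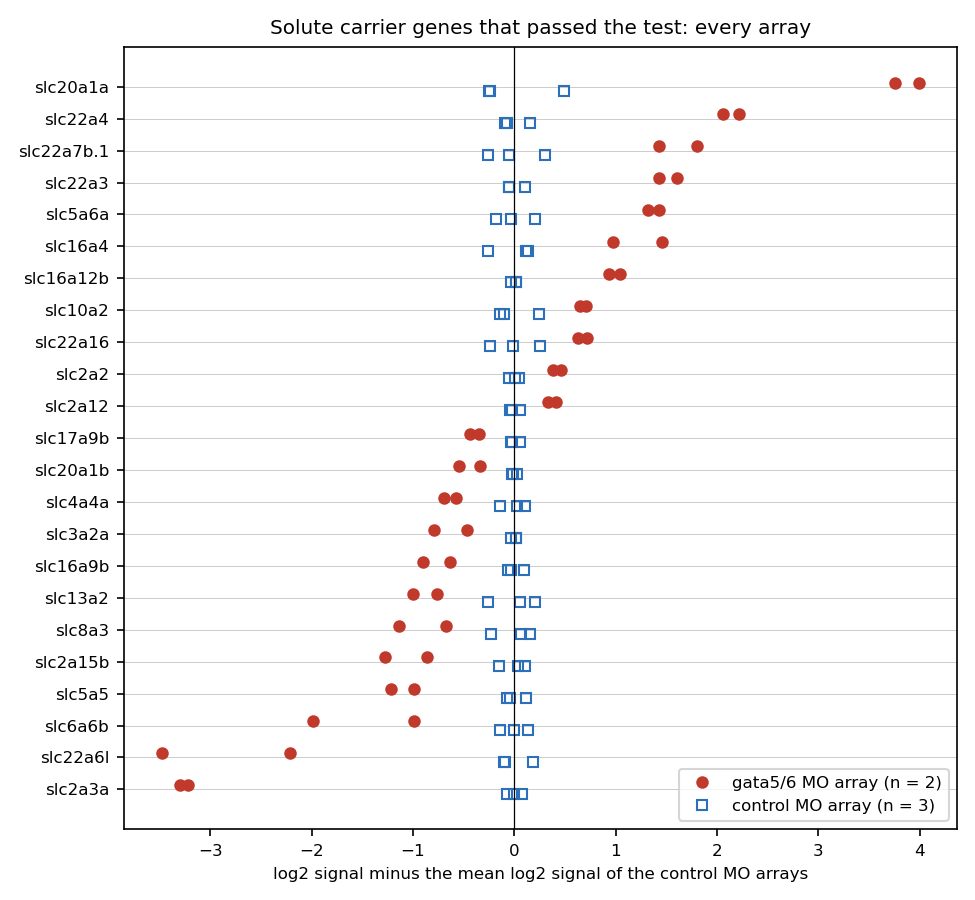
Signals of the 23 carrier genes that passed, on each array, as log2 differences from the mean of the control MO arrays (filled circles, 2 gata5/6 MO arrays; open squares, 3 control MO arrays). The genes are ordered by fitted change from slc20a1a to slc2a3a, and in none of them do the groups overlap. The control MO points of slc20a1a and slc5a6a and the gata5/6 MO points of slc5a5, slc6a6b, slc13a2 and slc22a6l were not well above background.

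Among sugar carriers the gene slc2a3a fell furthest. It encodes a facilitative glucose transporter whose mammalian counterpart, GLUT3, supplies neurons. Its signal was 13.5% and 14.2% in gata5/6 MO embryos, against 132%, 126% and 140% in control MO embryos. These values lie far apart with little spread in either group, a 9.58-fold fall (log2 change -3.26, SE 0.0906, adjusted p = 4.11e-05). The related gene slc2a15b, which in medaka is needed for the colour of yellow and white pigment cells, had signals of 3.79% and 2.85% after gata5/6 MO and 7.44%, 7.09% and 6.20% in controls. That fall was 2.09-fold (log2 change -1.07, SE 0.152, adjusted p = 0.00814).

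A pair of genes of the same family moved the opposite way by small amounts. The gene slc2a2, whose product GLUT2 serves liver, gut and pancreas in mammals, had signals of 147% and 139% in gata5/6 MO embryos and between 103% and 110% on the 3 control MO arrays (log2 change 0.43, SE 0.0838, adjusted p = 0.0242). For slc2a12 they were 44.8% and 47.4%, against 37.1%, 34.6% and 35.1% (log2 change 0.38, adjusted p = 0.0377). Beside the 7.84% of all genes that rose and the 7.17% that fell, 2 of the 12 measured sugar carriers rose and 2 fell. The other 8 did not pass, and the median log2 change of the class was -0.09. Those 8 include 2 genes of sodium-coupled glucose carriers, slc5a2 (-0.25) and slc5a9 (0.47), and slc5a11, a sodium-coupled myo-inositol carrier (-0.51).

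Leaving out any 1 control MO array ended the calls of slc2a2 (log2 changes of 0.45, 0.40 and 0.43 without control replicates 1, 2 and 3) and slc2a12 (0.41, 0.36 and 0.37). A separate variance for each group ended those calls and that of slc2a15b. The slc2a12 call was lost with no filter on dim probes, and repaired normexp, a background correction described under processing and chosen after seeing the data, ended the calls of slc2a12 (0.27) and slc2a15b (-0.22), whereas slc2a3a passed under every alternative run.

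**Figure D2:**
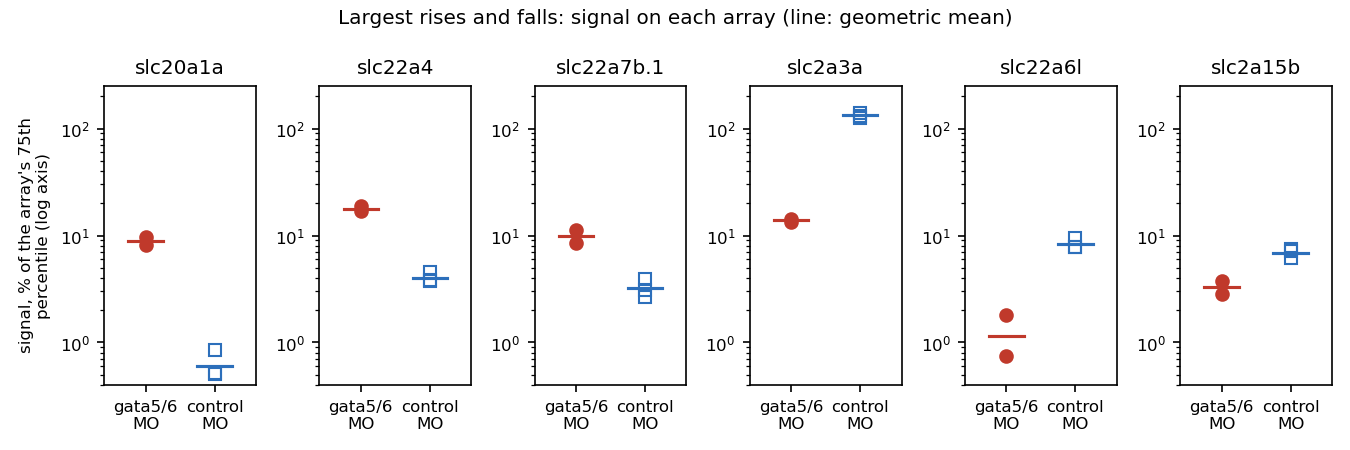
Signals of the 3 carrier genes with the largest rises (slc20a1a, slc22a4, slc22a7b.1) and the 3 with the largest falls (slc2a3a, slc22a6l, slc2a15b), ranked by fold or, where 1 group was not above background, by its bound, as percent of the array's 75th percentile on a log axis, gata5/6 MO arrays left of control MO arrays; lines are geometric means. The control MO points of slc20a1a and the gata5/6 MO points of slc22a6l were not well above background.

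Phosphate carriers split by copy. The sodium-phosphate cotransporter gene slc20a1a, whose product is PiT-1, had signals of 8.20% and 9.68% on the gata5/6 MO arrays. On the control MO arrays they were 0.513%, 0.510% and 0.853%, none of them well above background. The gene was therefore at least 4.43-fold higher after gata5/6 MO (adjusted p = 0.000472). The bound sets each control array to no less than its lowest signal marked as above background. Here and below, the adjusted p beside a bound is that of the fitted change, which takes the dim signals as read. The other slc20a1a probe gave a log2 change of 4.37 beside the 3.88 fitted here. With repaired normexp the slc20a1a value was 0.83 and the call held.

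The copy slc20a1b moved down, with 1340% and 1540% in gata5/6 MO embryos and 1940%, 1990% and 1920% in controls. This was a log2 change of -0.44 (SE 0.0944, adjusted p = 0.0320), and its other 2 probes gave -0.28 and -0.26. The PiT-2 gene slc20a2 had signals of 137% and 179% after gata5/6 MO, against 192%, 174% and 203%, and the groups overlapped (log2 change -0.27, adjusted p = 0.247). In the class of phosphate and organic anion carriers, slc17a9b, the gene of the vesicular nucleotide transporter, also fell, at 30.3% and 28.6% against 40.2%, 38.1% and 37.7% (log2 change -0.39, adjusted p = 0.0327). Thus 1 of 5 measured genes of the class rose and 2 fell, with a median log2 change of -0.27. Among all genes 7.84% rose and 7.17% fell. The rise, that of slc20a1a, entered through the gata5/6 MO group alone. Of the 4 genes of the class above background on all 5 arrays none rose and 2 fell. Calls of slc20a1b and slc17a9b were lost without control replicate 1, 2 or 3 (log2 changes of -0.44, -0.43 and -0.45 for slc20a1b, and -0.36, -0.40 and -0.41 for slc17a9b) and with a variance for each group. The slc20a1b call was lost with no filter on dim probes and with the mean over its probes (-0.33) too.

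Carriers of organic ions held 5 of the 11 rises. Of 11 measured genes in this class 5 rose, 2 fell and 4 did not pass (median log2 change 0.15), and 4 of the 5 rises were in family 22, whose members carry organic cations, anions and carnitine. All 7 measured genes of family 22 had a median log2 change of 0.67, with 4 risen and 1 fallen. Over all genes 7.84% rose and 7.17% fell. Of the 5 genes of the family above background on all 5 arrays, 3 rose and none fell. Of the 8 such genes of the whole class 4 rose and none fell. The gene slc22a4, whose mammalian product OCTN1 takes up ergothioneine, reached 18.8% and 16.8% in gata5/6 MO embryos, against 3.79%, 4.51% and 3.85% in control MO embryos. It rose 4.40-fold (log2 change 2.14, SE 0.115, adjusted p = 0.000254), and no array of either group came near the other group's values.

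A similar separation was seen for slc22a3, the gene of an extraneuronal monoamine and cation carrier (OCT3 in mammals). Its signals were 98.0% and 86.6% after gata5/6 MO and 34.6%, 31.2% and 31.0% in controls, a 2.86-fold rise (log2 change 1.52, SE 0.103, adjusted p = 0.000597), with 1.40 from its other probe. The organic anion carrier gene slc22a7b.1 had 11.2% and 8.60%, against 2.68%, 3.95% and 3.09% (log2 change 1.62, SE 0.197, adjusted p = 0.00452). It belongs to a cluster of close copies that a probe need not tell apart, so its identity is uncertain, and its other probe gave 2.56. The carnitine carrier relative slc22a16 had 4.51% and 4.25% in gata5/6 MO embryos and 3.26%, 2.71% and 2.33% in controls, on 2 of which it was above background (log2 change 0.67, adjusted p = 0.0369). For slc10a2, whose mammalian product recovers bile acids in the ileum, the values were 6.63% and 6.89%, against 5.01%, 3.92% and 3.82% (log2 change 0.68, adjusted p = 0.0276).

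The falls in this class were in genes that were above background in controls alone. The gene slc22a6l, named as like the renal organic anion carrier OAT1, had 1.80% and 0.748% on the gata5/6 MO arrays and 7.84%, 9.52% and 7.79% on the control MO arrays. It was at least 4.16-fold lower after gata5/6 MO (adjusted p = 0.00506), and its arrays in that group differed from each other more than the control arrays did. The sodium-iodide symporter gene slc5a5, which serves the thyroid, had 2.02% and 1.72%, against 3.88%, 3.81% and 4.32%, and was at least 1.92-fold lower (adjusted p = 0.00242). The genes slc10a7 (0.02), slc10a3 (-0.11), slc22a2 (0.11) and slc22a15 (0.15) did not pass.

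Calls of slc10a2 and slc22a16 were lost without control replicate 2 (log2 changes of 0.63 and 0.67) or control replicate 3 (0.61 and 0.56), and with a variance for each group, which also ended the slc22a7b.1 call. They were lost without gata5/6 MO replicate 1 too (0.71 and 0.63), where the lone array was assumed to vary like the controls. Both were lost with no filter on dim probes, and slc22a16 also with trend and robust eBayes. With repaired normexp the calls of slc5a5 (-0.14), slc10a2 (0.28) and slc22a16 (0.24) were lost, and values of slc22a4 (0.84), slc22a7b.1 (0.58) and slc22a6l (-0.61) shrank while their calls held.

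**Figure D3:**
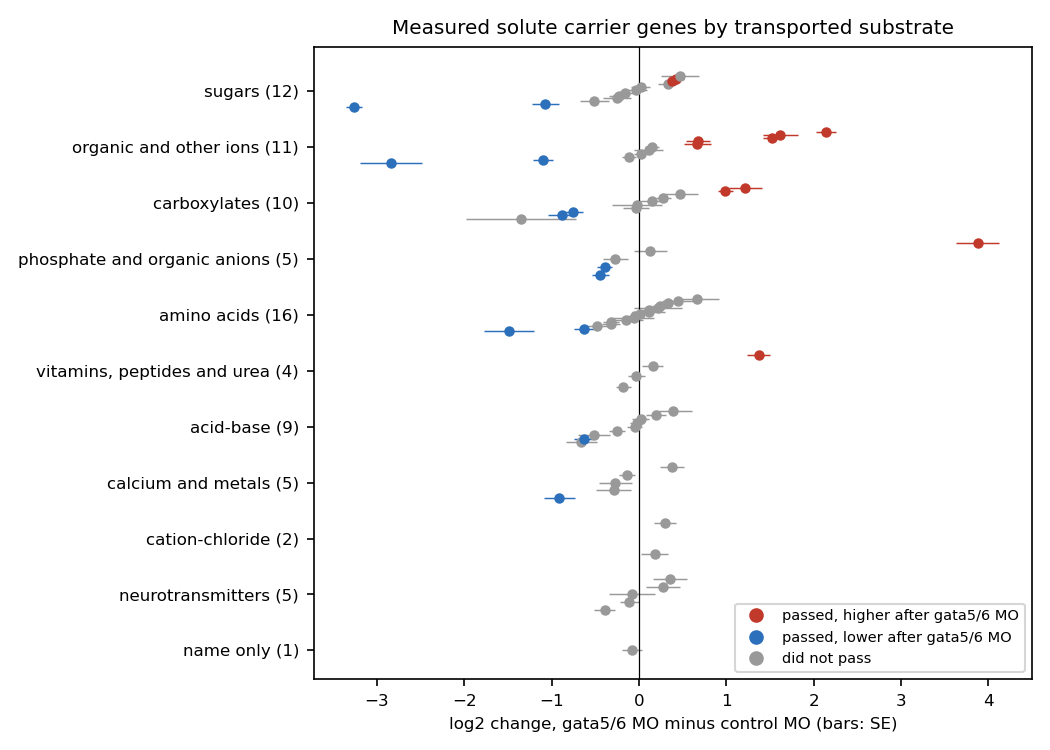
Log2 change, gata5/6 MO minus control MO, of each of the 80 measured carrier genes with its SE (bars), by transported substrate, with the number of genes in brackets (red, passed and higher; blue, passed and lower; grey, did not pass). Most genes lie near 0, and slc20a1a, slc2a3a and slc22a6l lie furthest out.

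Carboxylate carriers moved both ways, with 2 of 10 measured genes risen, 2 fallen and 6 that did not pass (median log2 change 0.07). Among all genes 7.84% rose and 7.17% fell. Of the 8 carboxylate carriers above background on all 5 arrays 2 rose and 1 fell. The gene slc16a12b, whose human counterpart moves creatine, had signals of 151% and 140% in gata5/6 MO embryos and 71.5%, 74.0% and 73.8% in control MO embryos. It rose 1.99-fold (log2 change 0.99, SE 0.0841, adjusted p = 0.00124). The relative slc16a4 had 8.03% and 11.2%, against 4.41%, 3.41% and 4.49% (log2 change 1.22, SE 0.191, adjusted p = 0.0114), and its other probe gave 1.44. With repaired normexp the slc16a4 value was 0.49 and the call held.

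The gene slc16a9b, related to a human carnitine carrier, was lower, at 93.7% and 78.1% after gata5/6 MO and 156%, 142% and 139% in controls (log2 change -0.76, SE 0.115, adjusted p = 0.0100). Its copy slc16a9a had 2.16% and 1.45%, against 2.99%, 11.3% and 2.72%. Neither gata5/6 MO signal was well above background and control replicate 2 was far above the other control arrays. The fitted change did not pass (-1.35, SE 0.633, adjusted p = 0.206) and was -0.69 without control replicate 2. The citrate and dicarboxylate carrier gene slc13a2 had 2.21% and 1.88%, not well above background, against 3.13%, 3.92% and 4.32%, and was at least 1.73-fold lower (adjusted p = 0.0196). The genes slc16a1b (-0.03), slc16a3b (-0.02) and slc16a10 (0.15), of lactate and aromatic amino acid or thyroid hormone carriers, did not pass. With a variance for each group the calls of slc16a4, slc16a9b and slc13a2 were lost. The slc13a2 call was also lost without control replicate 2 (-0.85) or 3 (-0.78) and with repaired normexp (-0.11).

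Of 16 measured amino acid carriers none rose and 2 fell (median log2 change -0.02), where 15.0% of all genes passed in either direction. Of those above background on all 5 arrays, 14 in number, none rose and 1 fell. In limma 3 of the 16 carriers had an unadjusted p under 0.05 upward and 5 downward, the 2 that passed included. The share of all genes at that level is not given here. Of the 14 that did not pass, changes ran from slc1a2b (-0.48) to slc7a5 (0.66, fitted against controls that were not above background). The gene slc3a2a, a copy of the CD98 heavy chain that brings amino acid exchangers to the cell surface, had signals of 424% and 338% in gata5/6 MO embryos, against 591%, 592% and 571% in control MO embryos (log2 change -0.63, SE 0.118, adjusted p = 0.0210). The taurine carrier gene slc6a6b had 0.619% and 1.23%, not well above background, and 2.23%, 2.70% and 2.44% in controls. This made it at least 1.22-fold lower (adjusted p = 0.0221, for the fitted log2 change of -1.49). Leaving out control replicate 1, 2 or 3 ended both calls (-0.62, -0.62 and -0.64 for slc3a2a, and -1.56, -1.42 and -1.49 for slc6a6b). The slc3a2a call was lost with a variance for each group and the slc6a6b call with repaired normexp (-0.06).

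Among carriers of vitamins, peptides and urea, 1 of 4 measured genes rose and none fell, with 0 at an unadjusted p under 0.05 downward in limma (median log2 change 0.07). The shares over all genes were 7.84% risen and 7.17% fallen. None of the 3 carriers of this class above background on all 5 arrays passed. The gene slc5a6a, of the sodium-dependent carrier of pantothenate and biotin, had 3.18% and 3.43% in gata5/6 MO embryos and 1.25%, 1.13% and 1.47% in controls, all 3 of them too dim to carry the mark. It was at least 1.64-fold higher (adjusted p = 0.00187), a call lost with repaired normexp (log2 change 0.33). Its copy slc5a6b had 20.4% and 19.4%, against 22.5%, 23.3% and 21.8%, and did not pass (-0.18, adjusted p = 0.205).

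Of the 9 measured acid-base carriers 1 fell and none rose (median log2 change -0.05), where 7.17% of all genes fell and 7.84% rose. At an unadjusted p under 0.05 in limma 0 lay upward and 4 downward, the 1 that passed included. The share of all genes at that level is not given here. The gene slc4a4a, which encodes a sodium-bicarbonate cotransporter of the kidney tubule, had 73.3% and 79.5% after gata5/6 MO and 128%, 108% and 121% in controls (log2 change -0.63, SE 0.108, adjusted p = 0.0153), and its other probe gave -0.62. The anion exchanger gene slc4a2a had 6.15% and 7.55%, against 13.2%, 10.0% and 9.45%, without overlap and without passing (-0.66, adjusted p = 0.0596). By their brightest probes, the 6 measured sodium-proton exchangers of family 9 lay between -0.51 (slc9a5) and 0.20 (slc9a7). Their dimmer probes ran from -0.98 (slc9a6a) to 0.57 (slc9a7). Among 5 carriers of calcium and metals, slc8a3, of a sodium-calcium exchanger of muscle and brain, fell with 3.12% and 4.31%, against 7.21%, 5.88% and 7.69% (-0.91, SE 0.181, adjusted p = 0.0254). The iron carrier gene slc11a2 (-0.14) and slc24a5, of a melanosome cation exchanger (0.38, adjusted p = 0.116), did not pass. The slc4a4a call was lost without control replicate 1 (-0.58) or 3 (-0.62). That of slc8a3 was lost without gata5/6 MO replicate 1 (-0.67, with the lone array assumed to vary like the controls), control replicate 1 (-0.87) or control replicate 3 (-0.83), with repaired normexp (-0.24) and where dim probes were not filtered out. A variance for each group ended both calls.

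None of the 5 measured neurotransmitter carriers passed in limma, where 15.0% of all genes passed in either direction. At an unadjusted p under 0.05 in limma there was 1. The GABA carrier gene slc6a11a came nearest, with 90.6% and 112% in gata5/6 MO embryos, against 126%, 140% and 130% in controls (log2 change -0.39, adjusted p = 0.0881), and the glycine carrier gene slc6a5 was at 0.36 (adjusted p = 0.262). The 2 measured cation-chloride cotransporters were slc12a2, of the sodium-potassium-chloride cotransporter NKCC1 (0.30, adjusted p = 0.158), and slc12a9 (0.18, adjusted p = 0.470). The gene slc7a6os, no carrier, was at -0.08 (adjusted p = 0.671).

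In 7 pairs of duplicated copies both genes were measured, and in none did both pass in the same direction. The slc20a1 pair passed in opposite directions, as given above. In 4 pairs 1 copy passed, namely slc2a15b (-1.07, with slc2a15a at -0.03 and -0.65 by its 2 probes), slc16a9b, slc3a2a (-0.63, with slc3a2b at 0.45) and slc5a6a (1.37, with slc5a6b at -0.18). The slc3a2b signal was 416% and 293% after gata5/6 MO and 290%, 255% and 223% in controls, with an adjusted p of 0.158. The difference between copies was not tested, so a copy that did not pass is not shown to differ from its partner.

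**Figure D4:**
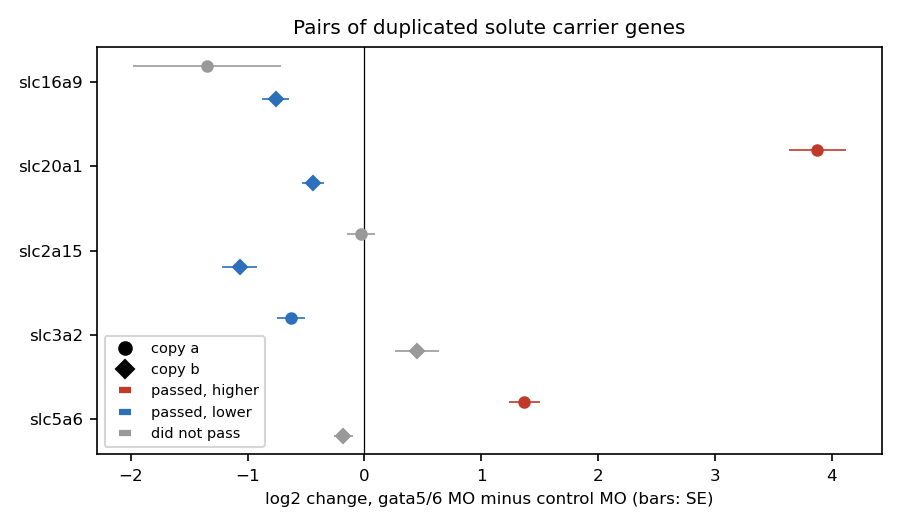
Log2 change, gata5/6 MO minus control MO, with its SE (bars) for copy a (circles) and copy b (diamonds) of the 5 measured gene pairs in which at least 1 copy passed (red, passed and higher; blue, passed and lower; grey, did not pass). The slc20a1 copies lie on opposite sides of 0, at a fitted 3.88 and -0.44, and the slc5a6 copies at 1.37 and -0.18.

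More than 1 probe was measured for 37 carrier genes, and no gene had probes that passed in opposite directions. All probes had the same sign in each of the 9 such genes among the 23 that passed. In a limma fit over probes the other probes of slc16a9b (-0.70, adjusted p = 0.139), slc2a15b (-0.86, adjusted p = 0.0823) and slc20a1b did not pass. For slc2a2 other probes at 0.48 and 0.27 did not pass and that at 0.58 did. Those of slc4a4a, slc16a4, slc20a1a, slc22a3 and slc22a7b.1 passed. Among genes that did not pass 9 had probes of mixed sign, counting slc24a4a, whose probes were at -0.29 and 0 after rounding. In 2 of the 9 a dimmer probe passed in a fit over probes. These were slc9a2, of a sodium-proton exchanger (0.56, adjusted p = 0.0152, against -0.25 for the brightest probe), and slc10a3 (0.57, adjusted p = 0.0332, against -0.11).

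Most genes of the pumps that build the gradients used by carriers did not pass, as over all genes, where 7.84% rose and 7.17% fell. Of 11 measured sodium-potassium pump genes 1 fell, the beta subunit gene atp1b2b (-0.87, adjusted p = 0.00539), although it was above background on 1 of the 2 gata5/6 MO arrays. The alpha subunit gene atp1a1a.1 had 4200% and 5160% after gata5/6 MO and 4630%, 5040% and 5080% in controls. Next by adjusted p in that list was atp1b3a (0.39, adjusted p = 0.0613). Of 17 measured proton pump genes 1 fell, the proteolipid gene atp6v0cb (-0.75, adjusted p = 0.00686), and atp6v1c1b was at 0.51 (adjusted p = 0.0527). Of 23 measured glycolysis genes 5 rose and none fell, beside 7.84% and 7.17% of all genes. Their median log2 change was 0.25. At an unadjusted p under 0.05 in limma 10 lay upward, the 5 that passed included, and 1 downward, with no share of all genes given for that level. The rises were led by the pyruvate kinase gene pkmb (1.68, adjusted p = 0.0166, above background on 1 of the 3 control arrays) and the phosphoglycerate mutase gene pgam1a (0.61, adjusted p = 0.0158). The others that rose were pgam2 (0.71), tpi1b (0.81) and pkma (0.45).

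Some markers of tissues that use these carriers passed too, beside the 7.84% of all genes that rose and the 7.17% that fell. Of 10 measured pronephros markers 2 rose, led by cdh17 (2.34, adjusted p = 0.000165), and 4 fell, led by wt1a (-1.47, adjusted p = 0.00249), and their summed signal was 1860% to 1920% in gata5/6 MO embryos, against 1660% to 1790% in controls. Without cdh17 the sum was 1460% to 1470%, against 1570% to 1700%. Of 7 measured markers of the yolk syncytial layer, the nutrient-passing tissue at the yolk surface, 2 rose and 3 fell, with apoea (-3.73, adjusted p = 0.00166, above background on 1 of the 2 gata5/6 MO arrays) and apoa1a (-0.97, adjusted p = 0.00137) lowest by p. Their summed signal was 23100% to 25300%, against 33200% to 33900%, a gap carried largely by apoa1a (9630% and 9060%, against 18000%, 18800% and 17900%). The 2 that rose were hnf4a (0.62, adjusted p = 0.0192) and apoa2 (0.68, adjusted p = 0.0479). The layer's defining factor gene mxtx2 was above background on at most 1 array. Among 6 ionocyte markers only ca2 rose (1.84, adjusted p = 0.000135), and the next was foxi3b (-0.24, adjusted p = 0.148), with sums of 1810% to 1830% against 1150% to 1180%. The other 5 ionocyte markers all had changes below 0 and summed to 785% to 795%, against 866% to 885%. Of 4 measured pigment cell markers gch2 rose (2.10, adjusted p = 0.0205) and sox10 was next (-0.20, adjusted p = 0.301). The sums overlapped, at 381% to 468% against 463% to 481%. Most of each sum was sox10 (346% and 441%, against 453%, 442% and 454%), and mitfa was not above background on any array. Of 9 primitive erythroid markers 2 globin genes rose, hbae1.1 by 0.61 (adjusted p = 0.0118) and hbbe2 by 0.88 (adjusted p = 0.0376). The sums were 2670% to 3050% against 2110% to 2330%, a gap carried in large part by hbae1.1 (1300% and 1180%, against 837%, 832% and 757%). The 7 that did not pass lay between -0.38 (hbae3) and 0.64 (hbbe3). The part of these tissues in the carrier changes was not tested.

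**Figure D5:**
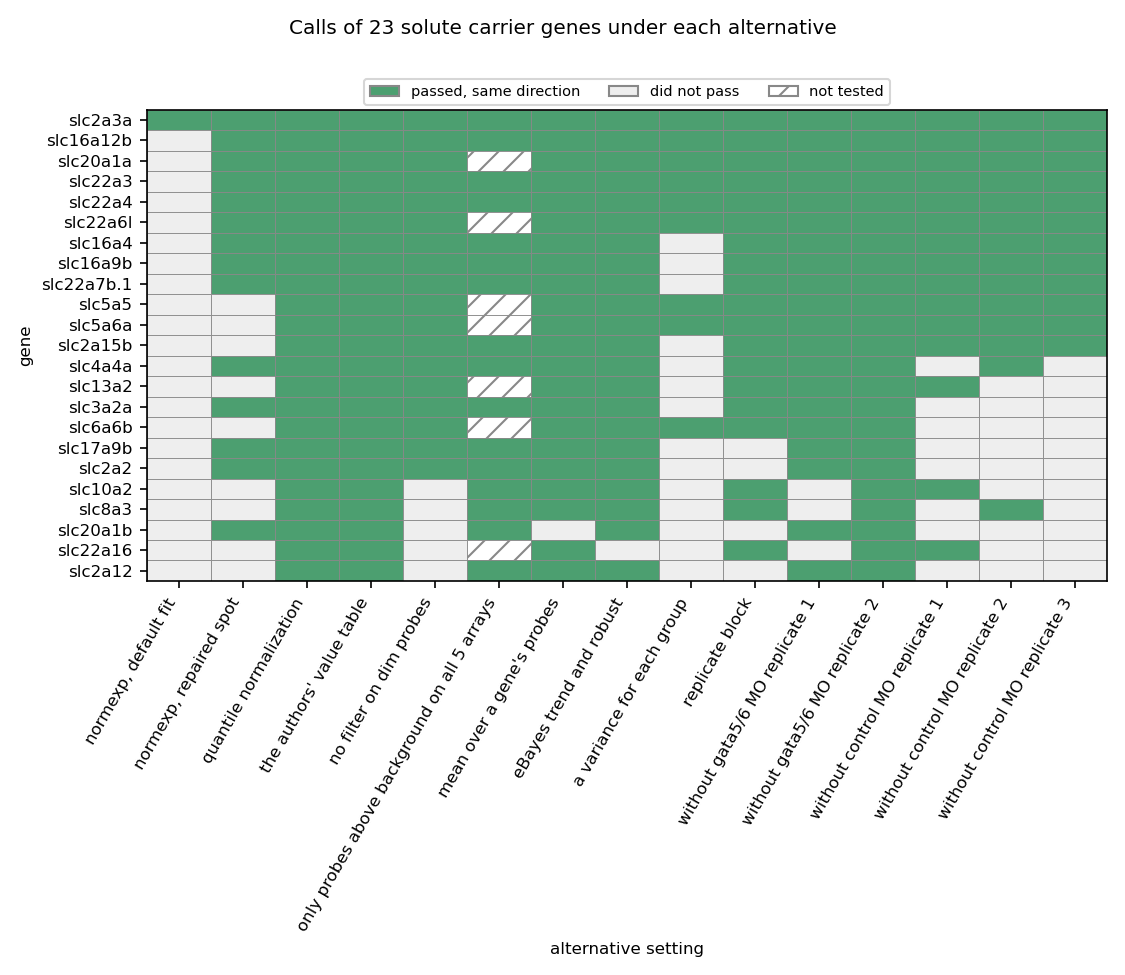
Each of the 23 carrier genes that passed (down) under each of the 15 alternative settings (across), shaded green where it passed again in the same direction, pale where it did not pass and hatched where it was not tested. The gene slc2a3a passed under all 15, and slc16a12b, slc20a1a, slc22a3, slc22a4 and slc22a6l failed under the default normexp correction alone.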

How the data were processed

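Agilent Feature Extraction 10.7.3.1 made the 5 array files, per the file headers (10.7.1.1 per the submitters' processing notes). The deposited processed signal is an intensity, background-subtracted and detrended within each array, with no scaling from one array to another. Flags in the deposited files mark spots well above background, saturated or outlying, as other values of 0 or 1. The deposited value table of the authors holds log2 values with 1 shared distribution, and the sources used here do not give how it was made.

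Log2 signals were scaled to each array's 75th percentile (506 to 574 units over non-control spots), spots of a probe were averaged, and 52 probes with an outlier spot were left out. Probe accessions were matched without versions to RefSeq genes of GRCz12tu, for names only (25598 of 43603 probes). The array design used an older build, so no coordinates are given, and no sequences were used here. The brightest of a gene's kept probes stood for it. The test was limma 3.58.1 (R 4.3.3) with lmFit and eBayes, 3 residual degrees of freedom, no covariate and a variance shared by both groups. The spread was not equal: the median SD per gene in log2 was 0.065 in the control MO group and 0.17 in the other group. For carrier genes these medians were 0.115 and 0.137. In simulated data the test found 95 of 100 genes changed by 1 in log2, and 100 of 100 changed by 2. It made 14 false calls there, and the spread simulated for each group is not given here. Where no array of a group was well above background, "at least N-fold" compares means after raising each dim array to at least its lowest signal well above background. An adjusted p beside such a bound belongs to the fitted change, not to the bound.

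The members, substrate classes and lists were chosen with earlier results of these data known. The rule named the 14 largest rises and falls that passed (here all), the 2 members of each class and list with the smallest adjusted p, and pairs of copies. Any other gene was picked with its values in view. Alternatives tried were 2 normexp background corrections (offset 50, on median signals; the default, and one after repair of 4 spots, called repaired normexp), quantile normalization, the authors' table, 2 other probe filters, the mean over probes, trend and robust eBayes, a variance for each group, the replicate block and leaving out each array.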

Additional observations from a re-analysis of the deposited data

How the results depend on the processing

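The main counts were 11 risen and 12 fallen carrier genes, and 5 and 4 with a variance for each group. Over all genes that fit gave 290 risen and 257 fallen, against 846 and 774. Leaving out 1 array gave 7 to 16 risen and 5 to 24 fallen genes, with 24 fallen without gata5/6 MO replicate 2 and 5 without control replicate 3. Over all genes these fits gave 371 to 3114 risen and 314 to 2165 fallen; a lone gata5/6 MO array is assumed to vary like the controls. A default normexp correction left 0 risen (in limma, 2 with an unadjusted p under 0.05) and 1 fallen (slc2a3a), and a median log2 change of -0.28, against -0.02, and over all genes 19 risen and 24 fallen. It turned slc10a2 to -0.23, slc22a16 to -0.31 and slc5a6a to -0.21. With 4 spots repaired, whose local background exceeded their signal by over 100 units (chosen after seeing the data), 8 rose and 7 fell, with 841 and 714 over all genes, and 14 of the 23 calls were kept. The offset of 50 shrinks changes of dim genes by construction. All 23 calls were kept with quantile normalization and with the authors' value table, 22 with the mean over probes and 22 with trend and robust eBayes. The authors' values already have 1 shared distribution, so the first 2 of these are close to the same setting (slc16a12b at 0.98 in both). With no filter on dim probes 18 were kept, over more tests, and 4 genes outside the 80 passed (slc6a4b, slc22a13b, slc18a3a and slc8a4a), none of them well above background on every array of a group. Over probes above background on all 5 arrays 16 of the 23 were tested and all 16 passed. The replicate numbers are not stated to pair samples, and deviations of same-numbered arrays correlated at 0.122 and 0.199 across genes. With the replicate block 12 rose and 13 fell, and 19 of the 23 calls were kept, all but slc2a2, slc2a12, slc17a9b and slc20a1b. Control replicate 3 stands alone in its block and has no part in the change. The fitted changes equal those without that array (slc20a1a at 4.12 in both), where 12 of the 23 calls were kept. The fits differ in their estimate of spread, so the larger count is no separate support for the calls. Slide or scan as a block could not be fitted, since each holds 1 group, and normexp with rma estimates was not run.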
